A study of Mus musculus with 19 samples.

Results

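Clca3a1, Clca3a2, Clca3b, Scgb3a1 and Agr2 are 5 genes of secreted or secretory-pathway proteins, described here in endothelial cells sorted from the lymphoid tissues of the mouse. Each gene had 1 probe set with that single symbol, and these 5 are taken out of 19938 genes measured. They were chosen by their measured signal, for high values in Peyer's patch or mesenteric sorts, so their differences in those sorts are given as a description with no test. Peyer's patches are the lymphoid follicles of the gut wall, mesenteric lymph nodes (MLN) drain the gut, and peripheral lymph nodes (PLN) drain other sites. High endothelial cells (HEC) line the venules where lymphocytes enter these organs, and capillary cells come from the exchange vessels. The arrays comprised 3 of Peyer's patch (PP) HEC, 3 of PP capillary cells, 2 of MLN HEC sorted as MAdCAM1+/PNAd+, 2 of MLN HEC sorted as MAdCAM1+, 2 of MLN capillary cells, 4 of PLN HEC and 3 of PLN capillary cells. All 19 samples came from adult BALB/c mice aged 6 to 8 weeks, with males and females mixed in equal parts. The labels name no treatment, no genetic change and no gate other than the MLN HEC antigens, and they do not say whether replicates were separate animals or sorts. P-values therefore rest on the spread between these arrays alone, and that spread may be technical.

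CLCA proteins were first described as calcium-activated chloride channels and are now known as self-cleaving metalloproteases. Modulation of the calcium-activated channel Ano1 (TMEM16A) has been described for a secreted member of the family, and not for all of them. Clca3a1 has been described in the mouse as a lymphatic endothelial antigen that binds the leukocyte integrin LFA-1, and the related Clca1 is a classical goblet cell gene of the gut. Scgb3a1 encodes a small secreted protein best known from airway epithelium. Agr2 encodes a protein disulfide isomerase of the endoplasmic reticulum that intestinal goblet cells need to fold the mucin Muc2.

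The 3 Clca members lie next to each other on mouse chromosome 3 (assembly GRCm38.p6), all on the minus strand. Clca3a1 spans positions 144729677 to 144760977, Clca3a2 spans 144780581 to 144819623 and Clca3b spans 144822623 to 144849302. They are followed by Clca4b, Clca4a, Clca1 and Clca2, which makes a cluster of 7 genes. Scgb3a1 lies on chromosome 11 (49663595 to 49665118) and Agr2 on chromosome 12 (35992925 to 36004081). The 250 bases before the annotated start of Clca3a1, from RefSeq for GRCm38.p6, are shown. Clca3a1 is among the members that differed between HEC and capillary cells in the PLN, a comparison that the rule of choice did not name. The window is chr3:144760978-144761227, read 5′ to 3′ on the minus strand, with no base marked in capitals.
Clca3a1: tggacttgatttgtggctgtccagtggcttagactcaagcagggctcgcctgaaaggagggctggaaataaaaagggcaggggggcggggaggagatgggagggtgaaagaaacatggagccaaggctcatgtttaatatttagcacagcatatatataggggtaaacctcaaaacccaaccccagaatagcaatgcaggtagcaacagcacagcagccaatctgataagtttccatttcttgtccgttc
Of 5 motifs searched on both strands in the windows of Clca3a1, Clca3b, Scgb3a1 and Agr2, the octamer ATGCAAAT occurred in Clca3b and in 1.6% of all 32851 promoter windows of the table. The forkhead motif TGTTTAC occurred in Clca3b (3.17% of all windows), and the NKX2 motif CACTTNA in Clca3b and Scgb3a1 (10.1%). The TATA motif TATAAA (12.4%) and the SOX motif ACAATG (10.7%) occurred in 0 of these windows. These matches describe letters in a window and not binding.

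The values are log2 signals, read here as centred for each probe set on a baseline that the sources used here do not state. They give differences between arrays, and not a level of one gene against another or its detection. Of 14 HEC markers measured, 11 were higher in HEC than in capillary cells in each tissue, and of 16 capillary markers 15, 14 and 15 were lower in HEC in PP, MLN and PLN. Genes were called at an adjusted p below 0.05 in limma with Benjamini-Hochberg adjustment over all genes. In PP HEC against PP capillary cells this called 8.9% of all genes higher and 10.6% lower, in MLN HEC against MLN capillary cells 7.87% and 7.31%, and in PLN HEC against PLN capillary cells 13.1% and 11.4%. PP HEC arrays 2 and 3 stood furthest apart of all replicate pairs, with an SD over genes of 0.45 for their difference against 0.196 to 0.312 for the other pairs. The PLN capillary arrays 1 and 2 carried more HEC signal than array 3, with a mean over the HEC markers of 0.79, 0.70 and 0.18. The mean over 43 intestinal epithelial genes was raised in all PP sorts, at 0.50, 0.75 and 0.23 in PP HEC and at 0.21, 0.74 and 1.20 in PP capillary arrays 1 to 3, and was between -0.15 and 0.15 on the 13 node arrays. In bulk sorts, fewer cells of a type and less RNA per cell cannot be told apart.

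**Figure D1:**
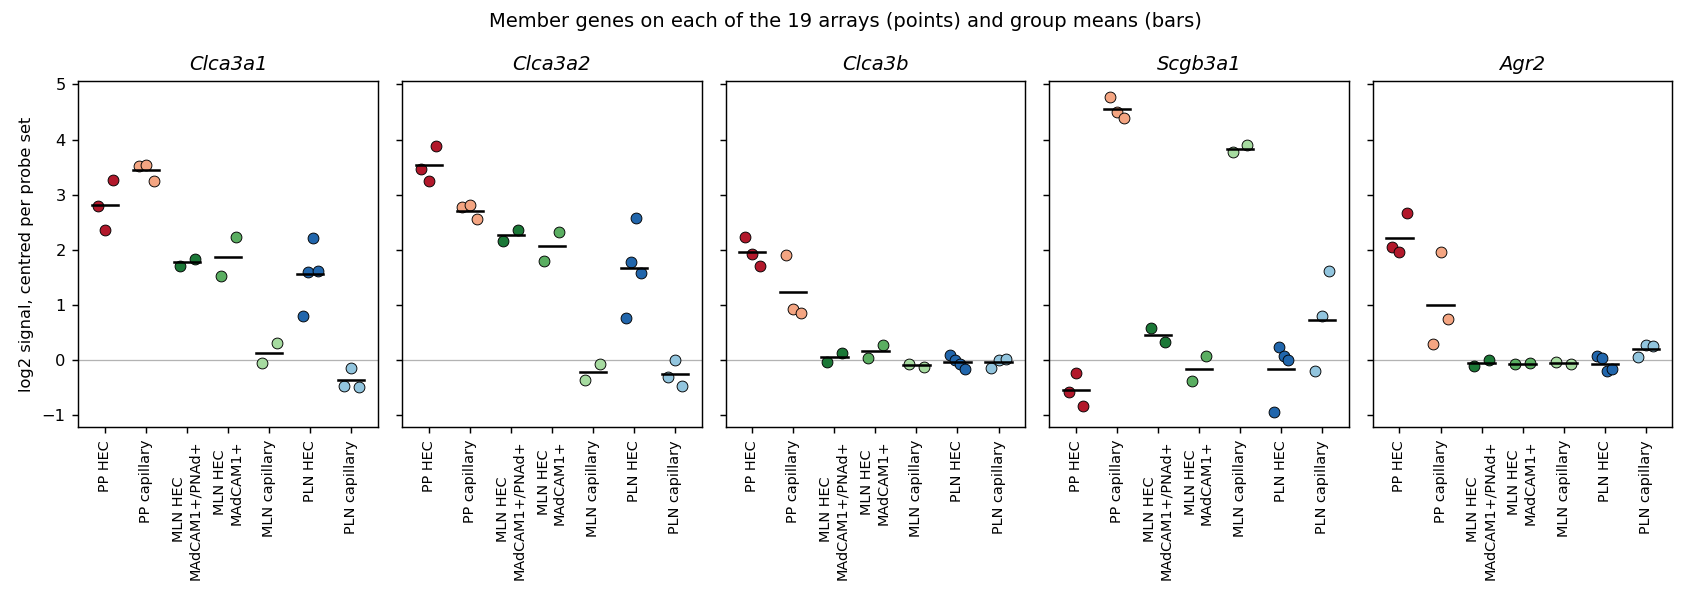
Centred log2 signal of the 5 genes (y axis) on each array (points), by sample group (x axis), with bars at the group means. Clca3a1 and Clca3a2 are high in both PP sorts and in node HEC, Clca3b and Agr2 stand above the node arrays in PP alone, and Scgb3a1 is high in PP and MLN capillary cells, all 5 of whose arrays lie above 3.7.

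Clca3a1 was high in both vessel types of the Peyer's patch and in the HEC of every tissue. Its signal was 2.79, 2.36 and 3.26 in PP HEC and 3.52, 3.54 and 3.25 in PP capillary cells. In MLN it was 1.71 and 1.82 in MAdCAM1+/PNAd+ HEC, 1.53 and 2.22 in MAdCAM1+ HEC, and -0.06 and 0.31 in capillary cells. In PLN it was 0.80, 1.60, 2.20 and 1.61 in HEC, against -0.47, -0.14 and -0.50 in capillary cells. HEC thus stood above capillary cells on every array of the nodes, while in the Peyer's patch the 2 sorts overlapped at 3.26 and 3.25. The group means ran in the order PP capillary, PP HEC, the 2 MLN HEC gates, PLN HEC, MLN capillary and PLN capillary. PP capillary and PP HEC overlapped as neighbours in this order, as did the MLN gates with each other and the MAdCAM1+/PNAd+ gate with PLN HEC.

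The difference in Clca3a1 between PP and PLN capillary cells was 3.81 ± 0.28 log2 (± SE of the model), and that between PP and MLN capillary cells was 3.32 ± 0.31, the highest of all 19938 genes. PP HEC against PLN HEC differed by 1.25 ± 0.26, and PP HEC against MLN HEC by 0.98 ± 0.26. Between PP HEC and PP capillary cells the difference was -0.64 ± 0.28 (-0.41 without PP HEC array 2 and -0.99 after a further quantile normalization), and between MLN HEC and MLN capillary cells it was 1.70 ± 0.30. The rule of choice named no PLN sort, but a high value on a centred scale may be relative to the other arrays. Earlier results of these data were also known, so tests of the members in the PLN may not be free of the choice. There Clca3a1 was higher in HEC by 1.92 ± 0.26 (4 and 3 arrays, limma adjusted p = 2.85e-05), with no overlap between the groups.

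Clca3a2, the neighbouring gene, had its highest signal in PP HEC. It was 3.46, 3.25 and 3.88 in PP HEC and 2.77, 2.81 and 2.55 in PP capillary cells. In MLN it was 2.17 and 2.36 in MAdCAM1+/PNAd+ HEC, 1.80 and 2.33 in MAdCAM1+ HEC, and -0.37 and -0.08 in capillary cells. In PLN it was 0.75, 1.77, 2.58 and 1.58 in HEC and -0.31, 0.00 and -0.47 in capillary cells. PP HEC lay above PP capillary cells on all arrays, and every PP capillary array lay above every MLN HEC array. The MLN gates overlapped with each other and the MAdCAM1+ gate with PLN HEC, and both node capillary groups overlapped at the bottom of the order.

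PP HEC exceeded PP capillary cells in Clca3a2 by 0.82 ± 0.31, PLN HEC by 1.86 ± 0.29 and MLN HEC by 1.37 ± 0.29. PP capillary cells exceeded PLN capillary cells by 2.97 ± 0.31 and MLN capillary cells by 2.93 ± 0.34. MLN HEC exceeded MLN capillary cells by 2.39 ± 0.32. In the PLN, Clca3a2 was higher in HEC by 1.93 ± 0.29 (limma adjusted p = 7.47e-05), again with no overlap. PLN HEC array 1 was the lowest HEC array for both genes, and Lyve1, a hyaluronan receptor of lymphatic endothelium that was also raised in HEC here, was at 1.67 on it against 3.41, 3.23 and 3.60 on the other PLN HEC arrays. The part of that array's makeup in the values was not tested.

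Clca3a1 and Clca3a2 moved together from array to array and parted between the 2 vessel types of the Peyer's patch. Over the 19 arrays their Pearson r was 0.939, and over the deviations from the group means it was 0.957, as descriptions of arrays that share groups. The difference Clca3a2 minus Clca3a1, whose zero is set by the unknown baselines, ran from 0.62 to 0.89 on the 3 PP HEC arrays and from -0.76 to -0.70 on the 3 PP capillary arrays. It averaged 0.50 in MAdCAM1+/PNAd+ MLN HEC, 0.19 in MAdCAM1+ MLN HEC and -0.35 in MLN capillary cells. In the PLN it averaged 0.11 in HEC and 0.11 in capillary cells, so there the 2 genes differed between vessel types by the same amount. This contrast between the genes was noticed after the values were seen and was not tested. On the 8 node HEC arrays Clca3a1 and Clca3a2 each lay above all their own node capillary values, while Clca3b stayed between -0.16 and 0.26. The CLCA genes are close relatives, and how far the probes of one bind RNA of another was not tested for any pair of them.

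**Figure D2:**
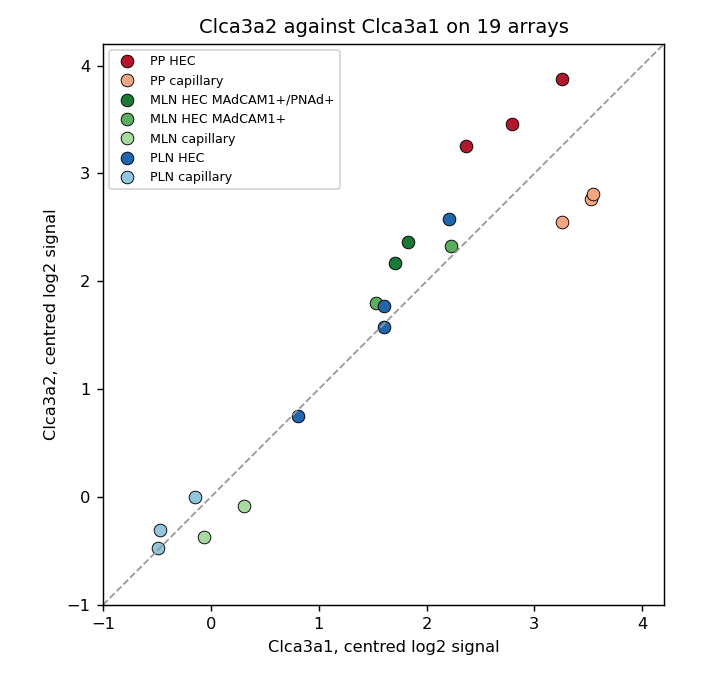
Clca3a2 (y axis) against Clca3a1 (x axis), both as centred log2 signal, with 1 point per array and the dashed line at equal values. The 3 PP HEC arrays lie 0.62 to 0.89 above the line and the 3 PP capillary arrays 0.70 to 0.76 below it, while PLN arrays lie near it.

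Clca3b, the third neighbour, stood out in the Peyer's patch alone. Its signal was 2.23, 1.92 and 1.71 in PP HEC and 1.91, 0.93 and 0.85 in PP capillary cells, and on the 13 node arrays it lay between -0.16 and 0.26. The PP sorts overlapped with each other and not with any node group, and among the 5 node groups each pair next to each other in the order of means overlapped. PP HEC differed from PLN HEC by 2.00 ± 0.19 and from MLN HEC by 1.86 ± 0.19. PP capillary cells differed from PLN capillary cells by 1.28 ± 0.20 and from MLN capillary cells by 1.33 ± 0.23. The difference between PP HEC and PP capillary cells was 0.73 ± 0.20, and without PP capillary arrays 2 and 3 it was 0.05. In the PLN, HEC and capillary cells differed by 0.01 ± 0.19 (limma adjusted p = 0.985), and the difference between MLN HEC and MLN capillary cells was 0.20 ± 0.21. The PP capillary array with the highest Clca3b, array 1, had the lowest epithelial mean of that group (0.21). Olfm4, an intestinal stem cell marker on the epithelial list, was 0.71, 1.31 and 0.59 in PP HEC and 1.21, 0.70 and 0.62 in PP capillary cells, and among the capillary arrays it ran in the same order as Clca3b. With that array alone, PP capillary cells differed from PLN capillary cells by 1.96.

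The rest of the chromosome 3 cluster showed other patterns. Of the 4 other Clca genes, 1 was called higher in PP HEC than in PLN HEC, where 2.16% of all genes were called higher and 4.49% lower. This was the goblet cell gene Clca1, at 0.83 ± 0.11 (limma adjusted p = 0.000131), with 0.74, 0.88 and 0.59 in PP HEC against -0.07, -0.11, -0.10 and -0.09 in PLN HEC. Clca1 was also higher in PP HEC than in PP capillary cells, by 0.42 ± 0.12 (adjusted p = 0.0182). In PP against PLN capillary cells, where 2.4% of all genes were called higher and 2.24% lower, Clca4b was higher by 1.14 ± 0.30 (adjusted p = 0.0339). Its values were 0.18, 1.32 and 1.59 in PP capillary arrays 1 to 3, in the same order as their epithelial means. Clca2 was lower in HEC than in capillary cells of the PLN (-1.14 ± 0.17, adjusted p = 8.54e-05) and the MLN (-1.01 ± 0.19, adjusted p = 0.00115), and lower in PP than in PLN capillary cells (-0.76 ± 0.18, adjusted p = 0.0196). Clca4a passed in 0 of the 7 comparisons tested. At an unadjusted limma p below 0.05 all 4 genes passed in PP against PLN capillary cells, with Clca2 lower and Clca1, Clca4a and Clca4b higher. The share of all genes at that level was not counted, so this is not read as a result about the cluster.

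Ano1 is the channel whose modulation was described for a secreted CLCA protein, and any link to the members was not tested. It was lower in HEC than in capillary cells of the MLN (-1.12 ± 0.18, limma adjusted p = 0.000231) and the PLN (-1.25 ± 0.16, adjusted p = 1.44e-05). It was also lower in PP than in PLN capillary cells (-0.68 ± 0.17, adjusted p = 0.0269). Of 28 anoctamin and other chloride channel genes measured, 2 were higher and 3 lower in PP HEC than in PP capillary cells, 0 higher and 3 lower in MLN HEC than in MLN capillary cells, and 5 higher and 4 lower in PLN HEC than in PLN capillary cells. The higher and lower shares of the list were 7.14% and 10.7% in PP, 0% and 10.7% in MLN, and 17.9% and 14.3% in PLN. The shares of all genes were near these, at 8.9% and 10.6%, 7.87% and 7.31%, and 13.1% and 11.4%, except for the higher share in MLN. The median differences of the 28 genes were 0.03, -0.04 and -0.05. Clic5, an intracellular channel family member tied to the actin cytoskeleton, had the largest difference of them in each tissue (-3.96 ± 0.19 in PP, -4.29 ± 0.20 in MLN and -3.98 ± 0.18 in PLN). The 5 higher genes in the PLN became 2 without PLN capillary array 3, and 3 without any one of PLN capillary array 2, PLN HEC array 1 or PLN HEC array 3.

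Clca3a1 is known in the mouse from lymphatic vessels, so the lymphatic markers were read beside it. Of 16 measured, 4 were higher and 8 lower in PLN HEC than in PLN capillary cells, with a median difference of -0.37. That was 25% and 50% of the list, beside 13.1% and 11.4% of all genes. The 8 became 5 without PLN capillary array 2 and 2 without PLN capillary arrays 1 and 2. Lyve1 was higher (2.56 ± 0.36, limma adjusted p = 4.45e-05), while Prox1, the transcription factor that defines lymphatic identity, was lower (-0.85 ± 0.22, adjusted p = 0.00794), as was the growth factor receptor Flt4 (-1.24 ± 0.13, adjusted p = 1.05e-06). Pdpn, a membrane mucin of lymphatic cells, differed by -0.27 ± 0.12 (adjusted p = 0.103). In PP against PLN capillary cells, where Clca3a1 differed most, 1 lymphatic gene was higher and 4 were lower. That was 6.25% and 25% of the list, beside 2.4% and 2.24% of all genes. Prox1 differed there by 0.24 ± 0.23 and Lyve1 by -0.41 ± 0.39, and neither passed (adjusted p = 0.826 and 0.816).

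Scgb3a1 divided the capillary cells of gut-draining tissue from all HEC. In HEC its signal was -0.59, -0.24 and -0.84 in PP, 0.57 and 0.33 in the MAdCAM1+/PNAd+ gate of the MLN, -0.38 and 0.06 in the MAdCAM1+ gate, and -0.94, 0.24, 0.07 and 0.00 in PLN. In capillary cells it was 4.78, 4.50 and 4.40 in PP, 3.77 and 3.90 in MLN, and -0.21, 0.79 and 1.61 in PLN. Every PP and MLN capillary array lay at 3.77 or more and every other array at 1.61 or less, and the PLN capillary arrays overlapped with HEC. PP capillary cells lay above MLN capillary cells on all arrays (0.72 ± 0.39), and the MAdCAM1+/PNAd+ gate lay above the MAdCAM1+ gate (0.61 ± 0.42).

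PP HEC were lower than PP capillary cells in Scgb3a1 by a log2 difference of -5.11 ± 0.35 (34.6-fold), the lowest of all 19938 genes, and MLN HEC lower than MLN capillary cells by -3.69 ± 0.37 (12.9-fold). PP capillary cells differed from PLN capillary cells by 3.83 ± 0.35 (14.2-fold) and MLN capillary cells from PLN capillary cells by 3.11 ± 0.39 (8.61-fold), each the highest of all genes. In that last comparison 0.12% of all genes were called higher and 0.171% lower. PP HEC differed from PLN HEC by -0.39 ± 0.32 and MLN HEC from PLN HEC by 0.30 ± 0.30. In the MLN against PLN HEC comparison 0.722% of all genes were called higher and 1.97% lower.

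In the PLN, Scgb3a1 differed between HEC and capillary cells by -0.89 ± 0.32 and did not pass (limma adjusted p = 0.0554). The 3 PLN capillary arrays ran against their HEC marker level, since the array with the lowest HEC mean (0.18) had the highest Scgb3a1 (1.61). Without PLN capillary arrays 1 and 2 the difference was -1.77 (adjusted p = 0.00214, with 1 capillary array assumed to vary like the other groups), and without array 1 alone it was -1.36 (adjusted p = 0.00207). It also passed with the replicate block, at -0.98 (adjusted p = 0.0431), and without PLN HEC array 2, at -1.02 (adjusted p = 0.0416). Array weights, whose estimation stopped before convergence, gave -1.20 (adjusted p = 0.00745). Of 19 fits with a single array left out, 2 passed. Without PLN capillary array 3, the highest of its group, the difference was -0.45 (adjusted p = 0.327). It was -0.86 without PLN capillary array 2 (adjusted p = 0.15) and -0.63 without PLN HEC array 1 (adjusted p = 0.159). Against PLN capillary array 3 alone, PP capillary cells differed by 2.95 and MLN capillary cells by 2.23. Of 24 other secretoglobin genes listed, 9 were measured, and limma called 0 of them in any of the 7 comparisons, with 0 at an unadjusted p below 0.05. Over these comparisons 0.12% to 13.1% of all genes were called higher and 0.171% to 11.4% lower. The share of all genes at the unadjusted level was not counted. With 9 genes, a count of 0 is not read as a result about the family.

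**Figure D3:**
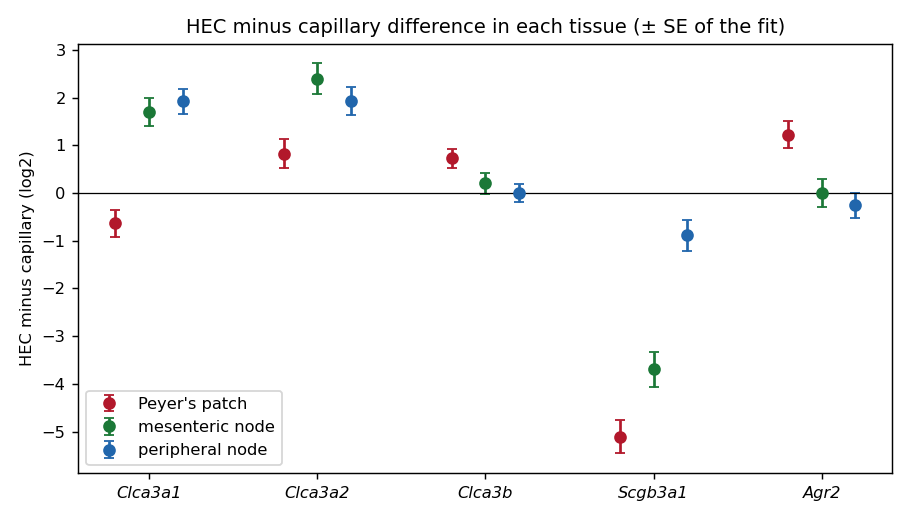
HEC minus capillary difference on the log2 scale (y axis) for each gene (x axis) in PP, MLN and PLN, with points at the estimates and bars of ± 1 SE of the model. Clca3a1 lies at -0.64 in PP and at 1.70 and 1.92 in the nodes, and Scgb3a1 lies at -5.11, -3.69 and -0.89.

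Agr2 was raised in Peyer's patch sorts, most of all in HEC. Its signal was 2.05, 1.95 and 2.66 in PP HEC and 0.28, 1.96 and 0.74 in PP capillary cells, and it lay between -0.20 and 0.26 on the 13 node arrays. The PP sorts overlapped at 1.95 and 1.96, and both lay above every node array. PLN capillary cells, at 0.06, 0.26 and 0.24, came next in the order, and the 4 lowest groups (the 2 MLN HEC gates, MLN capillary cells and PLN HEC) overlapped with their neighbours. PP HEC differed from MLN HEC by 2.28 ± 0.26, the highest of all genes, from PLN HEC by 2.29 ± 0.26 and from PP capillary cells by 1.22 ± 0.28. PP capillary cells differed from PLN capillary cells by 0.81 ± 0.28, and without PP capillary array 2 by 0.32. The difference between PP HEC and PP capillary cells was 1.71 without PP capillary array 2. In the PLN, HEC and capillary cells differed by -0.26 ± 0.26 (limma adjusted p = 0.502), and in the MLN by -0.01 ± 0.30.

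Epithelial and goblet cell genes were also raised in the Peyer's patch sorts, and their part in the Agr2, Clca3b and Clca1 values was not tested. Of 43 epithelial genes, 17 (39.5%) were higher and 0 lower in PP than in PLN HEC (median difference 0.42). Of all genes 2.16% were called higher and 4.49% lower there. In PP against PLN capillary cells 9 (20.9%) were higher and 0 lower (median 0.53), beside 2.4% and 2.24% of all genes. Among the defining markers, Epcam was at 0.63, 0.74 and 1.09 in PP HEC and at 0.48, 0.45 and 0.56 in PP capillary cells, with PP above PLN HEC by 0.98 ± 0.11 (limma adjusted p = 1.4e-05) and PP above PLN capillary cells by 0.53 ± 0.11 (adjusted p = 0.00879). In PP HEC against PP capillary cells 1 epithelial gene was higher (Gpa33, 0.70 ± 0.16) and 6 were lower. That was 2.33% and 14% of the list, beside 8.9% and 10.6% of all genes. Among the 6 were the enterocyte lipid carrier Fabp1 (-1.16 ± 0.39) and the keratin Krt20 (-0.62 ± 0.21). Within PP HEC the epithelial mean was lowest on array 3 (0.23), where Agr2 was highest (2.66) and Clca3b lowest (1.71). Within PP capillary cells it was highest on array 3 (1.20), where Agr2 was 0.74 and Clca3b, at its lowest of the group, 0.85. The count of 17 became 9 without PP HEC array 2, 11 without any one of PP HEC array 1, PLN HEC array 3 or PLN HEC array 4, and 24 without PP HEC array 3. The count of 9 became 21 without PP capillary array 1, 4 without PLN capillary array 1, 5 without any one of PP capillary arrays 2 and 3 or PLN capillary array 3, and 2 without PP capillary arrays 2 and 3 together. The balance between the PP sorts turned with single arrays. In PP HEC against PP capillary cells there were 6 higher and 3 lower epithelial genes without PP capillary array 3, and 5 higher and 3 lower without PP HEC array 3. There were 2 higher and 3 lower without PP HEC array 1, 1 higher and 3 lower without PP capillary array 2, and 1 higher and 13 lower without PP capillary array 1. Without PP capillary arrays 2 and 3 together 6 were higher and 3 lower, and array weights gave 15 higher and 16 lower.

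Of 35 goblet and mucus genes measured, 6 (17.1%) were higher and 0 lower in PP than in PLN HEC, with a median difference of 0.21. Of all genes 2.16% were called higher and 4.49% lower there. Muc2, the mucin that Agr2 helps to fold, was higher by 1.58 ± 0.25 (limma adjusted p = 0.000729) and the trefoil peptide Tff3 by 0.88 ± 0.19 (adjusted p = 0.00993). Muc2 was at 1.98, 0.62 and 1.88 in PP HEC and at -0.05, 0.94 and 0.70 in PP capillary cells, so that array 2 was the lowest PP HEC array and the highest PP capillary array. Agr2 was likewise lowest on array 2 in PP HEC (2.05, 1.95 and 2.66) and highest on array 2 in PP capillary cells. The mean over the 4 defining goblet markers measured was 1.17, 0.38 and 0.93 in PP HEC, and 0.13, 0.35 and 1.30 in PP capillary cells. Over all 35 goblet genes the mean was lowest on array 3 in PP HEC (0.31, 0.32 and 0.18). In PP capillary cells it was highest on array 3 (0.10, 0.24 and 0.42). Spdef, the transcription factor of goblet cell maturation, differed between PP and PLN HEC by 0.24 ± 0.14 (adjusted p = 0.283), and Zg16, a secreted lectin, by 1.20 ± 0.51 (adjusted p = 0.166). In PP against PLN capillary cells 3 goblet genes (8.57%) were higher and 0 lower, beside 2.4% and 2.24% of all genes. They were led by the membrane mucin Muc1 (1.33 ± 0.11, adjusted p = 9.01e-07). The 6 became 14 without PP HEC array 3, and the 3 became 5 without PP capillary array 1. In MLN against PLN HEC 0 of the 35 were called, beside 0.722% of all genes called higher and 1.97% lower. At an unadjusted limma p below 0.05 there were 3, and the share of all genes at that level was not counted.

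**Figure D4:**
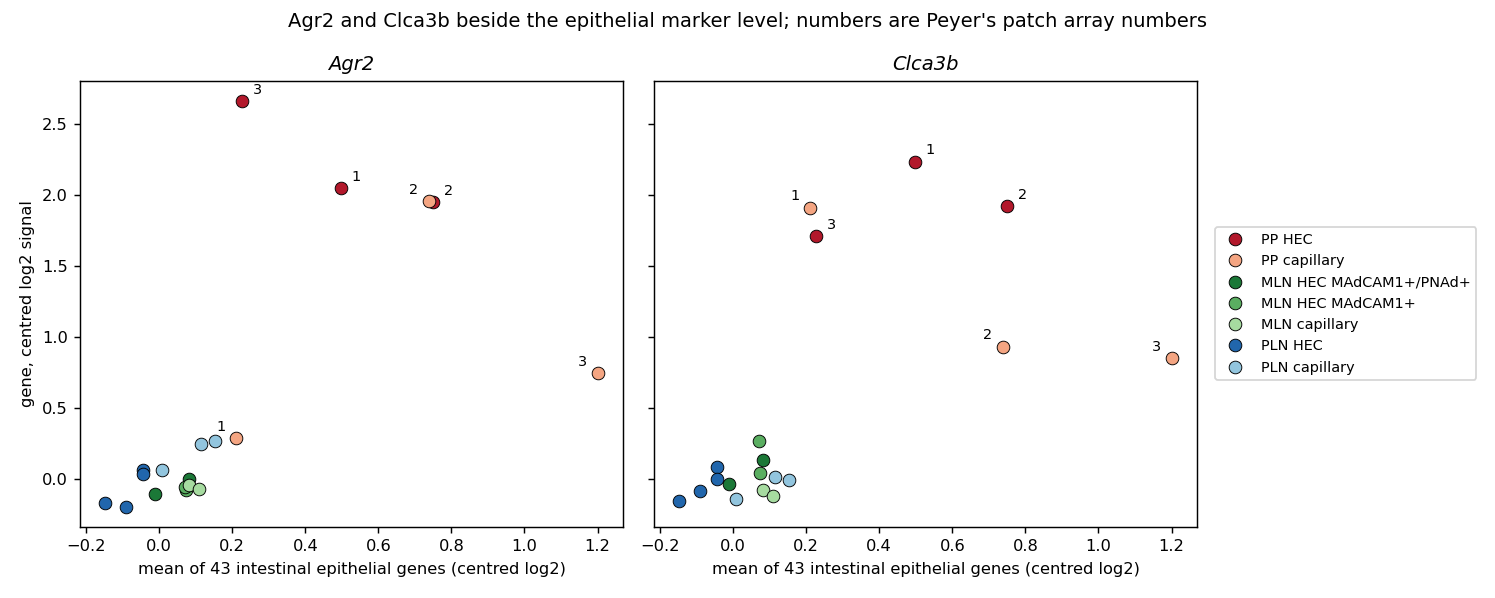
Agr2 (left) and Clca3b (right) as centred log2 signal (y axis) against the mean of 43 epithelial genes on the same array (x axis), with 1 point per array and the array number beside PP points. PP HEC array 3 combines an Agr2 of 2.66 and a Clca3b of 1.71 with an epithelial mean of 0.23, and PP capillary array 1 a Clca3b of 1.91 with a mean of 0.21.

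Of 21 genes of the AGR and protein disulfide isomerase family other than Agr2, 6 were higher and 0 lower in PP HEC than in PP capillary cells, 7 higher and 1 lower in MLN HEC than in MLN capillary cells, and 9 higher and 1 lower in PLN HEC than in PLN capillary cells. The higher genes were 28.6%, 33.3% and 42.9% of the list, beside 8.9%, 7.87% and 13.1% of all genes called higher in these comparisons, and 15, 13 and 11 of the 21 were not called. The medians were 0.23, 0.22 and 0.32. Tmx3, a membrane-bound member, was higher in HEC by 1.75 ± 0.17 in PP, 1.50 ± 0.18 in MLN and 1.48 ± 0.16 in PLN, and Pdia5 by 1.25 ± 0.22, 2.10 ± 0.23 and 1.28 ± 0.20 (limma adjusted p at most 0.000398 in these 6 tests). Casq2, a calcium-binding protein of the same fold, was the member that was lower in the nodes (-0.67 ± 0.10 in MLN and -0.81 ± 0.09 in PLN). Agr2 differed between HEC and capillary cells by -0.01 ± 0.30 in MLN and -0.26 ± 0.26 in PLN. Between PP and PLN HEC, 1 of the 21 (4.76%) was higher and 0 lower, beside 2.16% and 4.49% of all genes. It was Pdia5 (0.90 ± 0.20, adjusted p = 0.0117). Without PP capillary arrays 2 and 3, 3 were higher in PP HEC than in PP capillary cells, as without PP HEC array 3. Without MLN capillary array 1, 2 were higher in MLN HEC, and without PLN capillary arrays 1 and 2, 4 were higher in PLN HEC.

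The genes whose pattern was most like each member were found by Pearson r over the 19 arrays among 1427 genes with an SD of at least 0.5, as a description in which arrays of a group share their mean. For Clca3a1 they were Mctp1 (r = 0.974), Rasa4, Wee1, Ptprj and Myof, and for Clca3a2 they were Mctp1 (0.926), Myof, Ptprj, Pde9a and Pgm5. Mctp1, a membrane protein with calcium-binding C2 domains, averaged 2.36 in PP HEC and 2.56 in PP capillary cells, 1.06 in PLN HEC and -0.36 in PLN capillary cells. Pde9a, a cyclic GMP phosphodiesterase, had an r of 0.82 with Clca3a2 also over the deviations from group means, but ranked 59 of 1427 by Spearman's rho. For Clca3b the genes were Olfm4 (0.905), Cd44, Lypd8, Ddah1 and Kcnj2. Cd44, a hyaluronan receptor, was between 1.29 and 1.31 on the PP HEC arrays.

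For Scgb3a1 the nearest genes were Prom1 (r = 0.936), Bmx, Tcf15, Ackr3 and Hcar1. Prom1, a membrane glycoprotein, averaged -0.15 in PP HEC, and 3.72, 1.93 and 1.00 in capillary cells of PP, MLN and PLN. Bmx, a tyrosine kinase of arterial endothelium, averaged 2.19, 1.52 and 0.99 in the same capillary groups. On the PLN capillary arrays Scgb3a1 ranged from -0.21 to 1.61. Prom1 ranged there from 0.75 to 1.27, Bmx from 0.92 to 1.07 and Tcf15 from 0.57 to 0.90. Ackr3 ranged from -0.13 to 0.35 and Hcar1 from 0.76 to 0.90. Each gene has its own baseline, so these ranges give spread and not relative level. For Agr2 the nearest were Muc2 (0.917), Mboat2, Slit2, Lypd8 and Lgals2, of which Muc2 is on the goblet list and Lgals2 on the epithelial list. Over deviations from group means, Muc2 ranked 4 of 1427 for Agr2, with an r of 0.63. There Mboat2, Slit2, Lypd8 and Lgals2 had an r of 0.22, 0.26, -0.58 and -0.08. Agr2 and Clca3b had an r of 0.82 over all arrays and of -0.57 over the deviations. Clca3a1 and Scgb3a1, both high in PP capillary cells, had an r of 0.15.

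**Figure D5:**
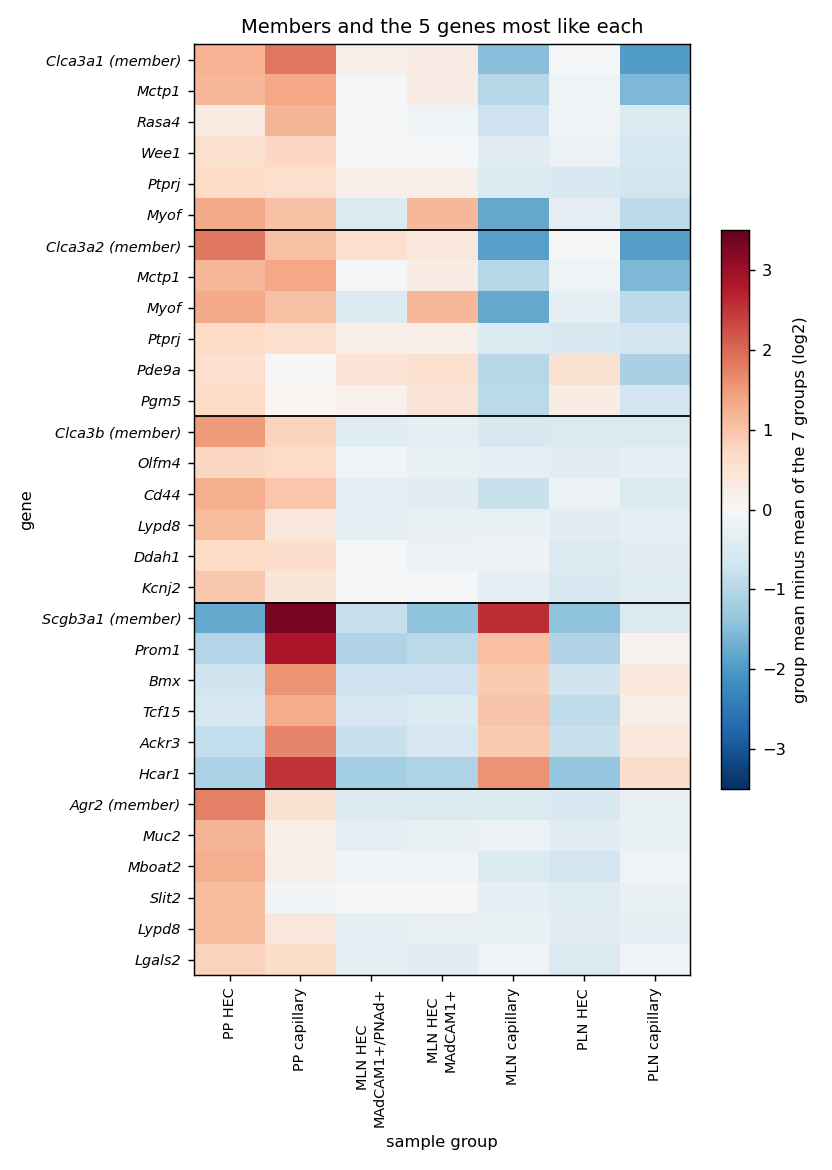
Heat map of group means, each minus the gene's mean over the 7 groups (colour, log2), for the 5 genes and the 5 genes most like each (rows), by sample group (columns). Scgb3a1 lies above its mean in the PP and MLN capillary columns and below it in the PLN capillary column, while the 5 genes most like it lie above theirs in all 3. The rows of Clca3b and Agr2 and of the genes most like them lie above their means in both PP columns, except Slit2, which does so in PP HEC and not in PP capillary cells.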

How the data were processed

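RNA of 19 samples of sorted endothelial cells was measured on Affymetrix arrays, 1 sample per array. The deposited values are log2 signals, which the authors made with RMA and Partek (versions not given) per the submitters' processing notes. Values below 0 (the lowest was -4.092 and the highest 6.128) and an exact 0 in 54.47% of probe sets show that each probe set had been centred, on a baseline that the sources used here do not state. RMA compresses large folds. The number of arrays limits the precision.

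Of 28856 probe sets, 21789 had 1 symbol in the platform annotation, 1621 several and 5446 none. Probe sets of 1 gene were averaged, which left 19938 genes, and each of the 5 members had 1 probe set. Group means (7 groups, all arrays) were fitted with limma 3.58.1 (lmFit and eBayes, 12 residual degrees of freedom, prior 4.62) in R 4.3.3, with MLN HEC as the mean of both gates and two-sided p-values adjusted by Benjamini-Hochberg over all genes. The fit was checked on simulated data. Figures were drawn with matplotlib 3.10.9.

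Members and gene lists were chosen with earlier results of these data known. Named genes are the members, the 5 genes with the highest r per member, and up to 4 of the largest called genes and the defining markers of each list described. The alternatives were a replicate block, each array left out, quantile normalization again, the highest-mean probe set of a gene, median centring, array weights, only the compared groups, a robust prior, and, added after seeing the data, fits without PLN capillary arrays 1 and 2 and without PP capillary arrays 2 and 3. The labels give no batch or scan date. The promoter window of Clca3a2 is not reported here.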

Additional observations from a re-analysis of the deposited data

Results flagged for a closer look

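In 26 named genes the 4 PLN HEC arrays, the only group of 4 or more, were searched for an array whose gap to the nearest other, as a share of the group's whole range, passed Dixon's critical value, and 3 had one. Wee1, a cell cycle kinase, was at -0.6733 on PLN HEC array 2, against -0.30, -0.32 and -0.25 on the others. Pgm5 was at 0.709 on array 4, against 0.50, 0.52 and 0.54, and Olfm4 was at -0.1159 on array 1, against -0.27, -0.29 and -0.30. All 3 genes were named for their likeness to a Clca member. By the way that critical value is set, chance marks about 1 in 20 such groups.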

How the results depend on the processing

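The labels do not say whether the replicate numbers pair the arrays. Correlations of the deviations from the group means cannot decide it, because deviations within such small groups cancel out. The median r was 0.0834 over 41 same-numbered pairs (-0.426 to 0.556) and -0.0132 over 112 other pairs (-0.582 to 0.608). With the replicate block the counts of called genes shifted. They were 1027 in PP against PLN HEC (1326 as reported), 4449 in PLN HEC against PLN capillary cells (4897) and 4122 in PP HEC against PP capillary cells (3881). Of the members tested in the PLN, only Scgb3a1 changed its call (-0.98, limma adjusted p = 0.0431). In the PLN, the called differences of Clca3a1 and Clca3a2 between HEC and capillary cells kept their direction and passed under all these alternatives. The balance of higher and lower epithelial genes between PP HEC and PP capillary cells (1 and 6 as reported) turned to 6 and 3 without PP capillary array 3 and to 5 and 3 without PP HEC array 3. Of the 58 genes called between MLN and PLN capillary cells, refitting gave 116 after a further quantile normalization, 91 with array weights, 0 with only the compared groups, 4 without PLN capillary arrays 1 and 2, and 15 to 68 with single arrays left out. Array weights, whose estimation stopped before convergence, gave 10439 calls in PP HEC against PP capillary cells (3881 as reported), 11209 in PP against PLN HEC (1326), 1516 in PP against PLN capillary cells (925) and 1199 in MLN against PLN HEC (537). With only the compared groups, PP against PLN HEC gave 743 calls. Without PLN capillary arrays 1 and 2, PLN HEC against PLN capillary cells gave 2655 calls (4897 as reported) and PP against PLN capillary cells 354. Without PP capillary arrays 2 and 3, PP HEC against PP capillary cells gave 1989 and PP against PLN capillary cells 368. Single arrays left out gave 1791 to 3428 calls in MLN HEC against MLN capillary cells (3027), 285 to 665 in MLN against PLN HEC and 712 to 5300 in PP against PLN HEC, the highest without PP HEC array 3. The cause of these shifts was not tested. Of the 5 genes most like each member, ranking by Spearman's rho kept 4, 3, 2, 0 and 1 for Clca3a1, Clca3a2, Clca3b, Scgb3a1 and Agr2, and ranking by deviations from group means kept 0, 0, 0, 0 and 1.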
